A study of Mus musculus with 4 samples.

Results

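The outer dense fiber genes described here were the 8 genes Odf1, Odf2, Odf2l, Odf3, Odf3b, Odf3l1, Odf3l2 and Odf4, taken by name from the 22552 gene symbols in the tables. All 8 were listed, each on 1 entry. Outer dense fibers are keratin-like cables that run along the microtubule doublets of the mammalian sperm tail, through the midpiece and principal piece, and give the tail stiffness and strength. They are assembled late, during spermatid elongation, and the name of this gene group covers proteins of unlike kind. Odf1 encodes a major cysteine-rich fiber protein that is also needed in mice to hold the sperm head to the tail. Odf2 encodes another major fiber protein, and forms of it also sit on the appendages of the mother centriole, from which cilia grow. Odf2l encodes a relative of Odf2 found at centrioles and basal bodies. Odf3, known as SHIPPO1, and its relatives Odf3b, Odf3l1 and Odf3l2 encode proteins with repeats built around Pro-Gly-Pro. Odf4 encodes a testis membrane protein found in the sperm tail.

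RNA was sequenced from haploid cells labelled as round spermatids, which were sorted by fluorescence after Hoechst staining from mouse testes at 23 days of age. There were 2 libraries from Sox30 knockout mice, with strain labels DBA/C58/ICR and DBA/C60/ICR, and 2 from wild-type mice, with strain labels DBA/C57/ICR and DBA/C59/ICR. The number in the strain label counts up by sample, so whether the libraries differ in strain is doubtful, and the label was not used. SOX30 is a transcription factor of the SOX family, and the comparison asked which genes change in level when it is missing. The labels give neither the part of Sox30 that was removed nor whether the libraries of a genotype are from different mice. The p-values therefore reflect only how these libraries varied, and that variation may be technical.

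The tables hold FPKM, an abundance per transcript length that is normalised to each library's mapped reads. Read counts were not used here and the absolute depth is unknown. From the steps between the lowest values, depth relative to wild-type library 1 was 1.24 and 1.17 for knockout libraries 1 and 2 and 1.39 for wild-type library 2. Sox30 stood at 1.46 and 3.16 FPKM in the knockout libraries against 11.4 and 16.2 FPKM in the wild-type libraries, in the direction of the labels. All 7 round spermatid markers, such as Acrv1 and Crem, were detected in each library, with a summed level of 1354 and 919 FPKM in the knockout and 2310 and 2056 FPKM in the wild type. Zpbp2, which overlapped between genotypes, gave most of the knockout sum, and the other 6 were lower in both knockout libraries than in either wild-type library, such as Acrv1 at 16.6 and 9.15 FPKM in the knockout against 335 and 285 FPKM in the wild type. The 8 genes listed as markers of elongating spermatids, led by Prm1, summed to 44.5 and 6.80 FPKM in the knockout against 13061 and 7718 FPKM in the wild type. In the knockout 1 and 2 of them were listed at 0. Since all libraries are labelled as round spermatids, these sums do not show whether elongating cells were present. Spermatocyte markers summed to 655 and 510 FPKM in the knockout and 657 and 607 FPKM in the wild type, but 8 of the 10 were lower in both knockout libraries than in either wild-type library. Without Ccna1, which was higher in both knockout libraries, the sums were 286 and 300 FPKM in the knockout against 494 and 414 FPKM in the wild type. Leydig cell markers summed to 0.0674 FPKM or less in the knockout against 60.3 and 37.3 FPKM in the wild type. Insl3 gave most of the wild-type sums, at 54.8 and 30.3 FPKM. In the knockout 5 and 6 of the 7 Leydig cell markers were listed at 0. The knockout libraries also stood apart in how many symbols were listed at 0, which was 9329 and 11112 in the knockout against 6414 and 5915 in the wild type, and in the share of all FPKM held by the top 100 genes, at 37.9% and 46.7% in the knockout against 33.4% and 29.5% in the wild type. Of the genes tested, 280 were listed at 0 in both knockout libraries and 4 in both wild-type libraries. The part of these differences in the results was not tested. In sorted cells measured in bulk, fewer cells of a stage and less RNA per cell cannot be told apart.

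The Odf genes lie on 7 chromosomes. Odf1 and Odf3b are on chromosome 15, Odf2 on 2, Odf2l on 3, Odf3 on 7, Odf3l1 on 9, Odf3l2 on 10 and Odf4 on 11. For 6 of the 8, a promoter was held in the RefSeq table of build GRCm38.p6, from which the 250 bases before the annotated start are used. The promoters of the pair of genes with almost no transcript in the knockout, Odf3 and Odf3b, are shown with that of Odf4, whose level was alike in all 4 libraries. Capitals mark the 5 letters ACAAT, the core bound by SOX proteins, read on either strand, where the reverse strand reads ATTGT. The windows are chr7:140847666-140847915 on the plus strand for Odf3, chr15:89379255-89379504 on the minus strand for Odf3b and chr11:68927082-68927331 on the minus strand for Odf4. Each is written 5′ to 3′.
Odf3: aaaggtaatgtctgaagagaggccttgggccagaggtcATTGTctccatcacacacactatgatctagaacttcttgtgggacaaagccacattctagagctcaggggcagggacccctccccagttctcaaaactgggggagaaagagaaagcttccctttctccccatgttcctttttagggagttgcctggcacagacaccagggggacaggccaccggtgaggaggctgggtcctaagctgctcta
Odf3b: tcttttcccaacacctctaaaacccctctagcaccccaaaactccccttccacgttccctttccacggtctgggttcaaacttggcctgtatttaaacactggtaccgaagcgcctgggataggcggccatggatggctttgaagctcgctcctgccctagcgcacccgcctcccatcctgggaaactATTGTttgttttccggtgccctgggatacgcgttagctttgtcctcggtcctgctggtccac
Odf4: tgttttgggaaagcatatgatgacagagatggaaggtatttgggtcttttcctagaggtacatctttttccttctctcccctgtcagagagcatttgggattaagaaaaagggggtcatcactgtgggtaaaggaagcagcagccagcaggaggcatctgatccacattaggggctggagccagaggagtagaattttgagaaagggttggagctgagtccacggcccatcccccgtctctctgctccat
Odf3 and Odf3b held 1 match each, beginning 212 and 62 bases before the annotated start. No match was in the windows of Odf4, Odf2l, either start of Odf3l1 or any of the 4 starts of Odf2. Of all 32851 promoter windows of this length, 27.7% held at least 1 match. The letters TGACG, a short form of the site bound by CREM, were in 2 of the 4 overlapping Odf2 windows, in none of the other Odf windows and in 17.8% of all windows. A match describes these letters only, and no binding was measured.

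In the wild type the Odf genes spanned a wide range of levels with the same order in both libraries. Odf2 was highest, then Odf3, Odf4, Odf3l1, Odf1, Odf2l and Odf3b, and Odf3l2 was listed at 0. Odf3 and Odf4 overlapped between libraries, so their order is not resolved beyond the spread. In the knockout the upper places were held by Odf2 and Odf4 in both libraries, while Odf3 came after Odf2l. Odf1 and Odf3l1 changed places between the knockout libraries.

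Of the 7 Odf genes that were tested, Odf3, Odf3b and Odf3l1 fell in the knockout, 0 rose and Odf1, Odf2, Odf2l and Odf4 did not pass the test (limma, adjusted p under 0.05). Odf3l2 was listed at 0 in all 4 libraries and was not tested. Across all 9124 genes tested, 1221 fell, which is 13.4%, and 178 rose, which is 1.95%; after quantile normalization 999 fell and 961 rose. Of the 1221 genes that fell, 779 had a knockout mean under the filter of 1 FPKM and were tested only through the wild type, Odf3 and Odf3b among them, so their count supports nothing further. At an unadjusted p under 0.05, 4 Odf genes were lower and 0 higher, where 2860 of all 9124 genes tested passed in either direction. Both knockout values lay below both wild-type values for 5 of the 7, where 38.6% of all tested genes did so, and above them for 0 of the 7, where 22.2% did so. The calls depended on which pair of libraries gave the spread. Without wild-type library 1 or 2 most calls were lost, in fits that took their spread from the knockout pair only, which differed more. The log2 changes without wild-type libraries 1 and 2 were -7.00 and -7.26 for Odf3. They were -2.20 and -2.44 for Odf3b, and -1.86 and -2.28 for Odf3l1. Without knockout libraries 1 and 2 the log2 changes were -1.40 and -3.03 for Odf1 and -7.90 and -6.36 for Odf3. They were -2.70 and -1.44 for Odf3l1, and -2.32 in both fits for Odf3b. These fits took their spread from the wild-type pair only, and more of all genes passed in them than with all 4 libraries.

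**Figure D1:**
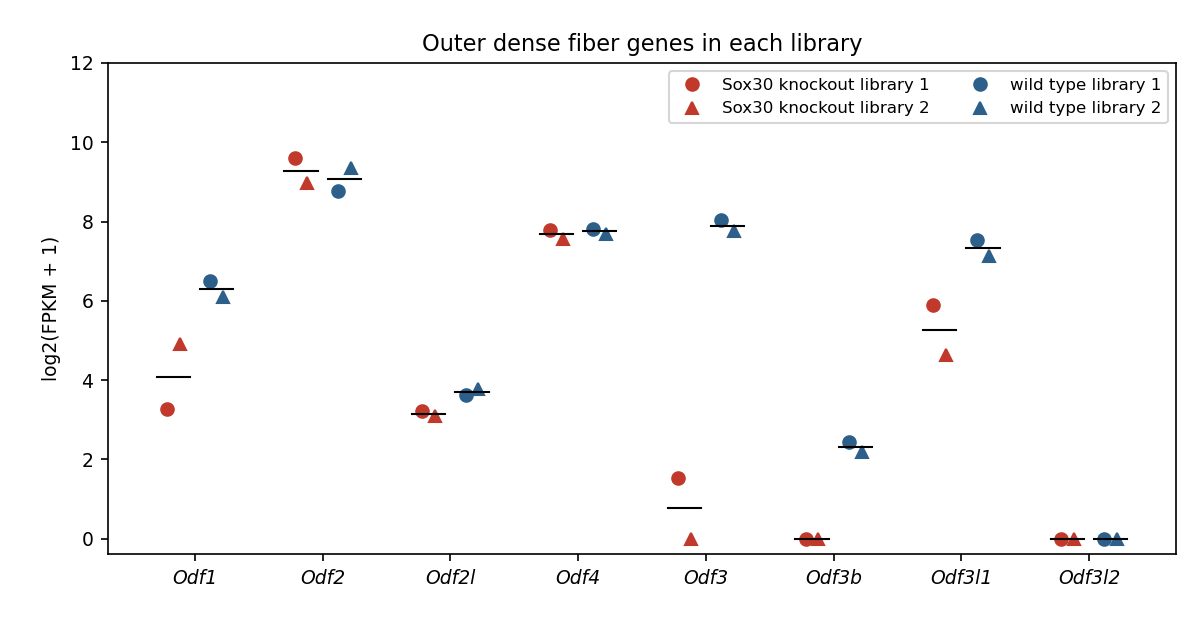
Level of each outer dense fiber gene as log2(FPKM + 1), with Sox30 knockout libraries in red to the left of wild-type libraries in blue, circles for library 1, triangles for library 2 and a bar for the mean of each genotype. Odf3 and Odf3b are at or near 0 in the knockout, Odf1 and Odf3l1 lie between, and Odf2 and Odf4 overlap.

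Odf3, the SHIPPO1 gene, was at or near 0 in the knockout. It stood at 1.90 and 0 FPKM in the knockout libraries, against 260 and 216 FPKM in the wild-type libraries. The groups were far apart, and Odf3 ranked 6909th in knockout library 1 against 433rd and 459th of all symbols in the wild type. Its log2 change, computed on log2(FPKM + 1), was -7.13 (SE 0.55, limma adjusted p = 9.1e-04), and it was 154th of the 9124 genes by p-value. The change ranged from -9.05 with a pseudocount of 0.1 to -5.37 with a pseudocount of 5, since knockout library 2 was listed at 0. Without wild-type library 1 the limma adjusted p was 0.166, and without wild-type library 2 it was 0.168.

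Its relatives differed in level and in how much remained. Odf3b, another SHIPPO-repeat gene, was listed at 0 in both knockout libraries, against 4.43 and 3.58 FPKM in the wild-type libraries. It passed the filter only through the wild type, as Odf3 did. The log2 change was -2.32 (SE 0.32, limma adjusted p = 0.0059), a size that depends on the pseudocount and was -5.35 with 0.1 and -0.85 with 5. Without wild-type library 2 the limma adjusted p was 0.0653.

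Odf3l1 kept part of its level. It stood at 58.4 and 23.7 FPKM in the knockout libraries, against 185 and 138 FPKM in the wild-type libraries. The groups did not overlap, although the knockout libraries themselves differed 2.46-fold. It averaged 41.1 ± 24.5 FPKM in the knockout and 161 ± 32.7 FPKM in the wild type (SD, n = 2 each), 3.93-fold lower, with pairwise folds between 2.37 and 7.79. The log2 change was -2.07 (SE 0.47, limma adjusted p = 0.0372). The call was lost with a pseudocount of 0.1 (limma adjusted p = 0.0658), with no filter on low values (0.107) and without wild-type library 1 (0.422) or 2 (0.407). The change was -1.44 without knockout library 2 and -2.70 without knockout library 1.

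Odf1, the fiber protein tied to head attachment, was lower in both knockout libraries but just missed the threshold. It stood at 8.68 and 28.9 FPKM in the knockout, against 90.1 and 67.1 FPKM in the wild type. The groups did not overlap, and the knockout libraries differed 3.33-fold, with the higher value in library 2, whereas Odf3l1 was higher in library 1. It averaged 18.8 ± 14.3 FPKM in the knockout and 78.6 ± 16.2 FPKM in the wild type (SD, n = 2 each), a ratio of 4.19. The log2 change was -2.21 (SE 0.57, 95% interval -3.61 to -0.81, limma adjusted p = 0.0532), with the largest SE of the 7 Odf genes tested. It passed under 7 of 16 alternatives, the fits without a knockout library among them. Its change was -3.03 without knockout library 2 and -1.40 without knockout library 1. The knockout levels of Odf1 and Odf3 were 8.68 and 28.9 FPKM against 1.90 and 0 FPKM, and whether the 2 genes changed by different amounts was not tested.

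Odf2 and Odf4 overlapped between genotypes. Odf2, the fiber and centriole protein, stood at 771 and 498 FPKM in the knockout and 434 and 657 FPKM in the wild type. The highest value came from a knockout library and the lowest from a wild-type library, with the other two crossing. Its log2 change was 0.21 (SE 0.36, 95% interval -0.66 to 1.09, limma adjusted p = 0.718). Odf4, the tail membrane protein, stood at 219 and 189 FPKM in the knockout and 222 and 207 FPKM in the wild type. The 4 values lay within 1.18-fold of each other across genotypes, and the log2 change was -0.07 (SE 0.27, 95% interval -0.73 to 0.58, limma adjusted p = 0.878). The intervals leave room for changes of either sign in both genes. The direction of Odf4 turned to 0.15 after median-ratio scaling and that of Odf2 to -0.031 after quantile normalization.

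Odf2l, the centriolar relative of Odf2, was low throughout. It stood at 8.32 and 7.49 FPKM in the knockout and 11.3 and 12.6 FPKM in the wild type, with no overlap. It averaged 7.91 ± 0.588 FPKM in the knockout and 11.9 ± 0.926 FPKM in the wild type (SD, n = 2 each). The log2 change was -0.53 (SE 0.33, limma adjusted p = 0.319), or -0.31 measured from the median change of all genes. It was -0.087 after a GC correction and -0.041 after quantile normalization. Odf3l2, the remaining SHIPPO-repeat relative, gave no value above 0 to compare.

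**Figure D2:**
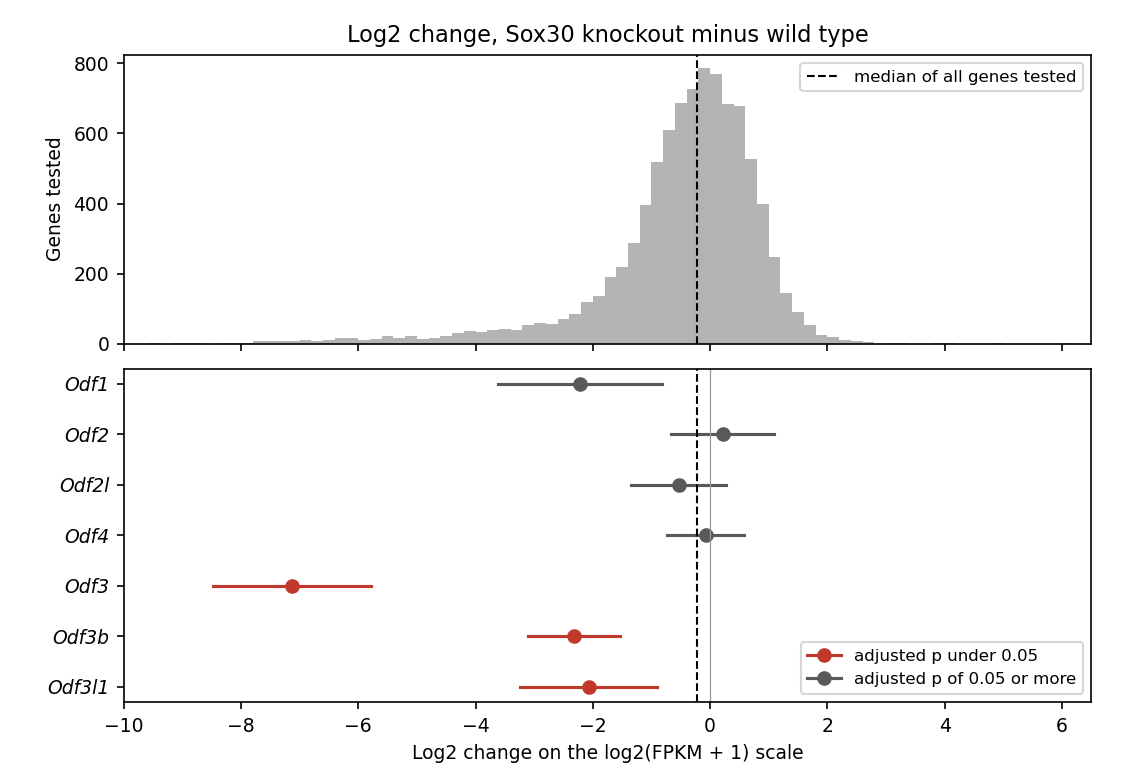
Upper panel, number of the 9124 genes tested by log2 change, Sox30 knockout minus wild type, with the median of -0.23 dashed. Lower panel, log2 change and 95% interval of each outer dense fiber gene tested, red where the limma adjusted p was under 0.05; Odf3 lies at -7.13, Odf3b and Odf3l1 near -2, and Odf2 and Odf4 near 0.

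The median log2 change of the 7 tested Odf genes was -2.07, against -0.23 for all genes tested. It includes Odf3 and Odf3b, which passed the filter only through the wild type, so it is given as a value only. With a pseudocount of 5 it was -0.85, against -0.12 for all genes. With a mean of at least 5 FPKM it was -1.30, against -0.10. The shift of all genes depended on the scaling, being -0.05 with median-ratio scaling and 0.24 with quantile normalization. Measured from the median of all genes, Odf3 changed by -6.90, Odf3b by -2.09, Odf1 by -1.99 and Odf3l1 by -1.84. Ratios within a library do not depend on the scaling between libraries. The ratio of Odf1 to Odf2 was 0.0112 and 0.0579 in the knockout against 0.208 and 0.102 in the wild type. That of Odf3l1 to Odf2 was 0.0757 and 0.0476 in the knockout against 0.425 and 0.211 in the wild type. Both ratios were lower in each knockout library than in either wild-type library, whereas the ratio of Odf4 to Odf2 overlapped, at 0.284 and 0.379 in the knockout and 0.511 and 0.314 in the wild type. These ratios are given as values and were not tested.

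The make-up of the group differed between genotypes. Odf2 held 72.2% and 66.7% of the summed Odf FPKM in the knockout, against 36.0% and 50.5% in the wild type. Odf3 held 0.178% and 0% in the knockout, against 21.6% and 16.6% in the wild type. The sum itself was 1068 and 747 FPKM in the knockout and 1206 and 1302 FPKM in the wild type. Odf4 held 20.5% and 25.3% in the knockout, against 18.4% and 15.9% in the wild type.

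The members differed in gene structure and sequence content as well. In the GENCODE M21 annotation Odf1 had 1 transcript of 2 exons, while Odf2 had 25 transcripts, 14 of them protein-coding, with up to 22 exons. The gene-level FPKM used here does not tell the sperm tail and centriole forms of Odf2 apart. Transcript GC content ran from 40.8% in Odf2l to 61.4% in Odf3b, which exceeded 97.8% of the genes tested. Over all genes the median change was -0.70 in the lowest of 5 GC classes and 0.37 in the highest, and both Odf3 and Odf3b, which fell, were rich in GC, at 57.4% and 61.4%. After a GC correction the log2 change was -7.62 for Odf3, -3.00 for Odf3b and -0.087 for Odf2l. No stretch of 50 bases was shared between transcripts of different Odf genes, and with transcripts of other genes only Odf2 shared any, 0.734% of its stretches. Exons of another annotated gene overlapped those of Odf2 alone, a small nuclear RNA gene on the opposite strand.

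The pattern of each Odf gene was set beside that of all tested genes by the root mean square difference of log2(FPKM + 1) over the 4 libraries. The nearest genes were picked by this measure, so their likeness to an Odf gene is no separate result. For Odf3 the nearest were Allc, Tmco2 and Aif1, at 0.23, 0.25 and 0.36. Allc, the allantoicase gene, stood at 2.95 and 0.0448 FPKM in the knockout and 265 and 230 FPKM in the wild type, close to Odf3 in every library. The nearest to Odf3b were Hdac11, a histone deacetylase gene, Hemgn and Itsn2, at 0.01, 0.03 and 0.10. Hdac11 and Hemgn were among the 280 genes tested that were listed at 0 in both knockout libraries. Nearest to Odf1 were Tsga13, Zbbx and Il31, at 0.24, 0.37 and 0.54, and Tsga13 shared its higher value in knockout library 2, with 9.87 and 26.0 FPKM in the knockout and 69.7 and 56.9 FPKM in the wild type. For Odf3l1 they were BC051628, Nt5c1b and Stard10, at 0.29 to 0.37. Odf2 lay nearest to Ldha, Acrbp and Vdac2, a lactate dehydrogenase, an acrosin-binding protein and a mitochondrial channel, at 0.22 to 0.24. Odf4 lay nearest to Atp5c1, Cops5 and Calm2, and Odf2l to Timp2, Rimklb and Rab14, all within 0.13.

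Of the 16 protein-coding genes beside the Odf genes in RefSeq order, 6 were expressed highly enough to be tested, and those beside Odf3 and Odf3b did not pass. Tymp, next to Odf3b, was at 0.945 and 0.456 FPKM in the knockout and 1.39 and 1.59 FPKM in the wild type (limma adjusted p = 0.293). Bet1l, next to Odf3, stood at 8.06 and 16.3 FPKM in the knockout and 10.4 and 9.51 FPKM in the wild type (limma adjusted p = 0.786). Rpl26 and Arhgef15, on the 2 sides of Odf4, rose while Odf4 overlapped between genotypes. Arhgef15, an exchange factor gene named after its values were seen, stood at 12.1 and 18.3 FPKM in the knockout against 2.60 and 1.61 FPKM in the wild type (limma adjusted p = 0.0126). Rpl26, a ribosomal protein gene with processed pseudogenes that can share its reads, is uncertain for that reason and stood at 141 and 378 FPKM in the knockout against 46.7 and 41.6 FPKM in the wild type (limma adjusted p = 0.0273).

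A mixed list, of genes tied to the fibers and of others such as Hook1 and Spata6, also split. Of 11 tested in a list of 12, 5 passed as lower, 0 as higher and 6 did not, where 13.4% of all genes tested fell, with a median log2 change of -0.996 against -0.23 for all genes. At an unadjusted p under 0.05, 6 were lower and 0 higher, where 2860 of all 9124 genes tested passed in either direction. The list was chosen with earlier results of these data known, so these counts and the median are given as values only. Oaz3, the testis antizyme, and Spag4, a SUN-domain protein that binds ODF1 in the rat, changed most. Spag4 stood at 8.95 and 4.16 FPKM in the knockout against 186 and 207 FPKM in the wild type, a log2 difference of -4.78 (SE 0.40, limma adjusted p = 0.0011). For Oaz3 the difference was -8.64 (SE 0.50, limma adjusted p = 4.8e-04). Hook1, whose loss in mice detaches tails from heads, fell to 5.24 and 4.57 FPKM in the knockout, against 21.2 and 33.0 FPKM in the wild type. Spata6, needed in mice for the piece connecting head and tail, fell to 125 and 60.8 FPKM in the knockout, against 315 and 302 FPKM in the wild type (limma adjusted p = 0.0324). Tssk4, a kinase of ODF2 in mice named after its values were seen, was near the threshold, at 37.6 and 16.5 FPKM in the knockout against 96.3 and 82.0 FPKM in the wild type (limma adjusted p = 0.0469). The count that fell was 3 with a pseudocount of 0.1 or no filter and 4 with the GC correction or no mean-variance trend. Without wild-type library 1 or 2, 0 of the 11 passed in limma, with 4 and 3 lower at an unadjusted p under 0.05.

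The centriole appendage genes, partners of the centriolar form of Odf2, mostly did not pass. Of 9 tested in a list of 12, 2 fell and 0 rose, which beside the 13.4% of all genes tested that fell is no result about the list, with a median of -0.68, and 0 passed in either direction after the GC correction. At an unadjusted p under 0.05, 2 were lower and 0 higher, and 3 and 0 after the correction. Sclt1, of the distal appendages, stood at 10.6 and 11.5 FPKM in the knockout and 28.4 and 31.7 FPKM in the wild type (limma adjusted p = 0.0356). Cep170, of the subdistal appendages, passed the filter only through the wild type and stood at 1.01 and 0.773 FPKM in the knockout and 4.08 and 4.39 FPKM in the wild type (limma adjusted p = 0.0357). After quantile normalization 0 passed as lower and 1 as higher, with 1 and 3 at an unadjusted p under 0.05. Leaving out wild-type library 1 or 2, 0 passed in limma, with 2 lower at an unadjusted p under 0.05 in each case.

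The other genes of the SHIPPO-repeat group mostly did not pass. Of 5 tested in a list of 6, 1 fell and 0 rose, which beside the 13.4% of all genes tested that fell is no result about the list, with a median of -0.46 (1 lower and 0 higher at an unadjusted p under 0.05). Stpg3, listed under the older symbol 4933433C11Rik, was at 0 in both knockout libraries against 65.1 and 54.2 FPKM in the wild type (limma adjusted p = 4.8e-04). It passed the filter only through the wild type, and without wild-type library 2 it did not pass the test. Stpg4, listed as 1700011E24Rik, stood at 1144 and 1117 FPKM in the knockout and 906 and 675 FPKM in the wild type (limma adjusted p = 0.249).

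**Figure D3:**
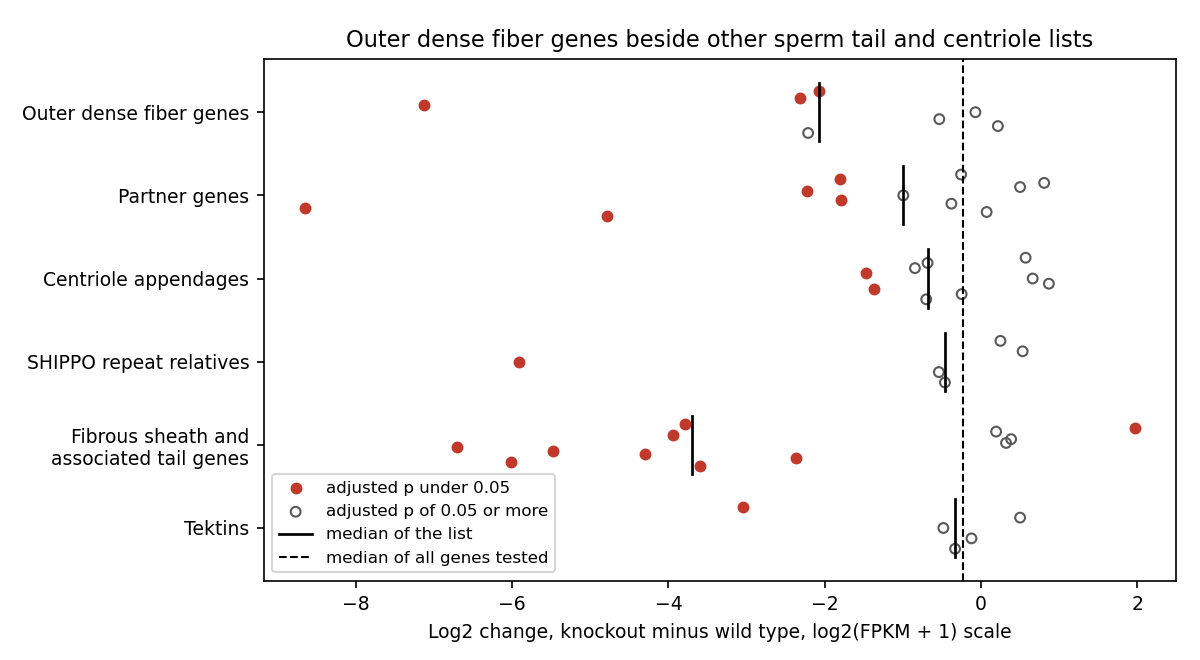
Log2 change, Sox30 knockout minus wild type, of each tested gene of the outer dense fiber group and of 5 other lists, filled red where the limma adjusted p was under 0.05, with the median of each list as a bar and that of all genes, -0.23, dashed. Falls stand beside genes near 0 in each list. The fibrous sheath list has a median of -3.69 against -2.07 for the outer dense fiber genes. Both medians include genes that passed the filter only through the wild type.

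Among the tail structures most like the fibers, the fibrous sheath list had a lower median change and the tektins one nearer 0, with neither difference tested. The lists were chosen with earlier results of these data known, so counts and medians are values only. The fibrous sheath and outer dense fiber medians include genes that passed the filter only through the wild type. With a pseudocount of 5 they were -1.90 and -0.85, and that of the tektins was -0.33. Of 12 fibrous sheath and associated tail genes 8 passed as lower, 1 as higher and 3 did not, where 13.4% of all genes tested fell and 1.95% rose, with a median of -3.69. Ropn1, Akap4, Gapdhs and Cabyr had the largest falls among them, with log2 changes of -6.70, -6.02, -5.48 and -4.30. Akap4, Gapdhs, Fscb and Catsper1 of those that fell passed the filter only through the wild type, and the last 3 were listed at 0 in both knockout libraries, so that the size of their change depends on the pseudocount. The gene that rose was Rhpn1, at 20.1 and 10.9 FPKM in the knockout against 2.23 and 4.09 FPKM in the wild type (limma adjusted p = 0.0389). In this list 0 rose with the GC correction, a pseudocount of 0.1, no filter or a replicate block. In each of these settings 1 was higher at an unadjusted p under 0.05. Of 5 tektins, proteins of the doublet microtubules, 1 fell, which beside the 13.4% of all genes tested that fell is no result about the list, with a median of -0.33. That call was lost with a pseudocount of 0.1 and with no filter. Tekt5 stood at 8.40 and 0.952 FPKM in the knockout against 32.4 and 36.2 FPKM in the wild type (limma adjusted p = 0.0451), whereas Tekt1 stood at 565 and 365 FPKM in the knockout against 621 and 528 FPKM in the wild type (limma adjusted p = 0.517). Without wild-type library 1, 3 fibrous sheath genes and 0 tektins fell in limma, and without wild-type library 2, 0 of either. At an unadjusted p under 0.05 both fits had 7 fibrous sheath genes and 0 tektins lower. Oaz3, Akap4 and Gapdhs are also among the genes listed above as elongating spermatid markers, so these lists and those marker sums are not independent. The part of cell stage in the falls of these lists, or in Odf3, Odf3b and Odf3l1, was not tested.

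**Figure D4:**
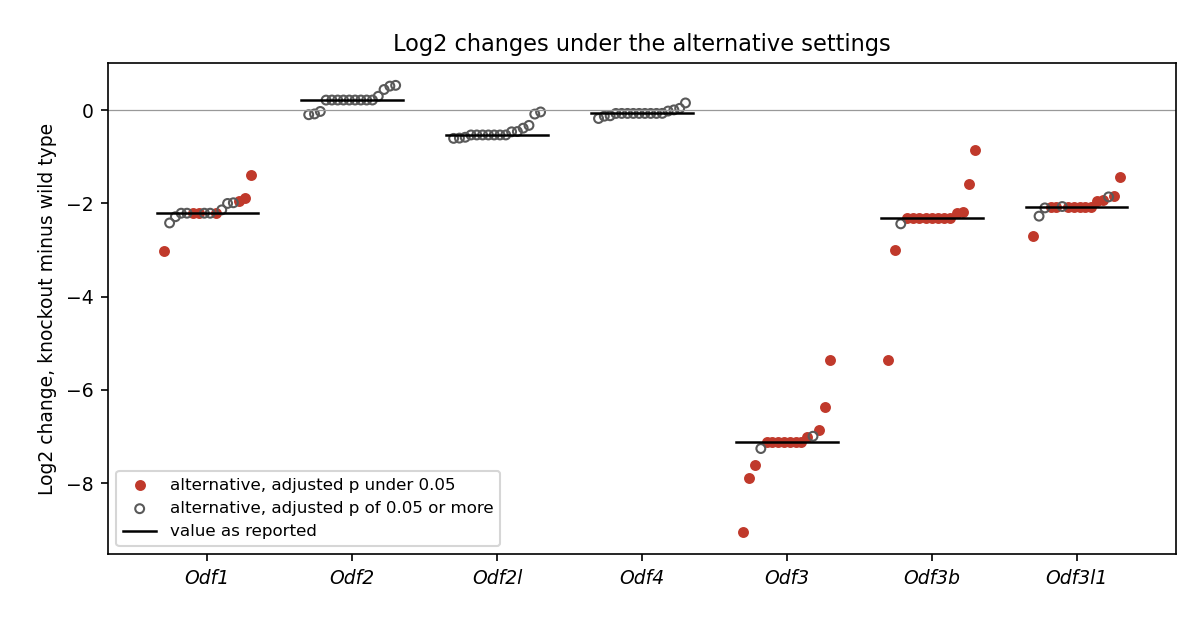
Log2 change, Sox30 knockout minus wild type, of each tested outer dense fiber gene under up to 16 alternative settings, sorted by value, filled red where the limma adjusted p was under 0.05, with the reported value as a bar. Odf1, Odf2l, Odf3, Odf3b and Odf3l1 stay below 0 in each, and Odf2 and Odf4 lie on both sides of 0.

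Across those settings Odf1, Odf2l, Odf3 and Odf3l1 stayed negative in all 16 and Odf3b in the 15 in which it was tested. Odf3 passed in 14 of 16, Odf3b in 14 of 15 and Odf3l1 in 12 of 16. Odf2, Odf2l and Odf4 passed in 0 of 16.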

How the data were processed

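RNA from sorted haploid cells was sequenced in 4 libraries, 2 per genotype, prepared, per the labels' protocols, with a NEBNext Ultra RNA kit. The authors deposited 1 FPKM value per entry and library. TopHat2 2.0.6, Cufflinks 2.0.2, Cuffdiff and build mm9 are named in the submitters' processing notes. Their roles and settings, including strand, were not given in the sources used here. Each table held 23021 entries, and entries of the 259 repeated symbols were summed. Genes with a mean of at least 1 FPKM (9124) were transformed as log2(FPKM + 1), so changes of low genes are understated. They were fitted with limma 3.58.1 in R 4.3.3 with genotype as the only term and a mean-variance trend (2 residual and 3.84 prior degrees of freedom). Two-sided p-values were adjusted by Benjamini-Hochberg over all genes tested. Errors of log2 changes are standard errors. The fit was tested on simulated data.

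The members and lists were chosen with earlier results of these data known. Named genes were the 8 members, Sox30 and the 3 genes nearest to each member. From each list up to 4 members past the threshold with the largest change were named, topped up to 2 by level. The genes beside the members, and Tssk4, Rhpn1, Fscb and Catsper1, lie outside this rule and were not named in advance. Older symbols were matched through RefSeq, and 1 gene of the SHIPPO-repeat list and the Sertoli cell marker Rhox5 were not matched. Markers of 8 cell types were summed. Those of spermatogonia summed to 6.86 and 5.69 FPKM in the knockout and 29.6 and 32.4 FPKM in the wild type, of Sertoli cells to 63.5 and 21.9 FPKM in the knockout and 83.3 and 221 FPKM in the wild type, of peritubular cells to 1.42 and 0 FPKM in the knockout and 8.49 and 7.00 FPKM in the wild type, and of blood and macrophages to 8.26 and 1.4e-06 FPKM in the knockout and 242 and 131 FPKM in the wild type. Clu gave most of the Sertoli cell sums. Without it they were 0.537 and 0.686 FPKM in the knockout and 1.15 and 3.67 FPKM in the wild type. The part of these cells in the results was not tested. Transcript structure and GC content (found for 98.5% of genes tested) came from GENCODE M21 by symbol, and its coordinates, of another build than mm9, were not used. Protein sequences were not analysed here. The alternatives tried were other pseudocounts, filters, scalings and empirical Bayes settings, each library left out, a replicate block and, added after seeing data, a GC correction with a lowess span of 0.3, crossed library numbers and symbols listed once.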

Additional observations from a re-analysis of the deposited data

How the results depend on the processing

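Precision is limited by 2 libraries per genotype and by a knockout pair that differed more (SD of log2 differences 0.852) than the wild-type pair (0.491). Leaving out each library in turn, the Odf genes that fell numbered 0 to 4, all genes that fell 0 to 3071 and all that rose 0 to 984. Without wild-type library 2, 0 genes passed in limma, with 1412 at an unadjusted p under 0.05, and without wild-type library 1, 386 fell and 0 rose, with 1517. The count of 3 Odf genes that fell was 2 with a pseudocount of 0.1 or no filter and 4 with a pseudocount of 5 or quantile normalization. All genes that fell numbered 787 with a mean of at least 5 FPKM, where fewer genes are tested. All that rose numbered 113 with a pseudocount of 0.1, 62 with no filter, 273 with median-ratio scaling and 961 with quantile normalization, and the cause was not tested.

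Same-numbered libraries did not deviate together (correlation of deviations across genes -0.20), so the numbers are not taken as pairs. With a replicate block 4 Odf genes and 1056 of all genes fell and 82 rose. With crossed numbers as a block, added after seeing the data, 4 Odf genes and 1416 of all genes fell and 390 rose.

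Changes of sign occurred only in genes that did not pass. Leaving out each library, Odf2 ranged from -0.10 to 0.53 and Odf4 from -0.18 to 0.036. Odf2 was at -0.031 with quantile normalization, -0.10 without knockout library 1 and -0.084 without wild-type library 1. Odf4 was at 0.15 with median-ratio scaling, 0.036 without knockout library 2 and 0.0028 after the GC correction. Taking only the first entry of a repeated symbol was not run, because the tables list entries in different orders.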
